A study of Mus musculus with 4 samples.

Results

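The genes described here encode the receptors for the inhibitory transmitters GABA and glycine. They were taken from the deposited table by symbol alone, as every subunit of the GABA-A receptor (symbols beginning Gabr), the GABA-B receptor genes Gabbr1 and Gabbr2, and the glycine receptor genes (Glra and Glrb). This gave 26 of the 33793 transcript clusters, 1 cluster for each of 26 genes, where a transcript cluster is the set of array probes assigned to a transcribed locus. The clusters held 15 to 38 probes each, and none of the 26 was marked as open to cross-hybridization. Counts cover all 26 genes, and 23 of them are described by name. Positions of clusters are those of the table, whose genome build is not given in the sources used here.

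The 4 arrays came from total RNA of whole brain of adult female mice of strain 129SV, 2 of the genotype called wild-type and 2 of Adar2-/-, the knockout of the RNA editing enzyme encoded by Adarb1. Per the methods of the study, all of these mice were siblings that also carried the pre-edited Gria2 allele (Gria2 R/R) on both chromosomes, so the wild-type mice were not of unmodified genotype. That allele rescues the early death of Adar2-/- mice. The labels do not say whether each array holds RNA of a separate animal, and the methods name total RNA of 2 wild-type and 2 Adar2-/- for the arrays. P-values are therefore taken to measure the spread between these arrays.

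GABA-A receptors are pentameric chloride channels. Receptors at synapses mostly combine alpha, beta and gamma subunits, and the delta subunit replaces gamma in receptors outside the synapse. GABA-B receptors couple to G proteins and act through potassium channels and calcium channels, while glycine receptors are chloride channels of alpha subunits with the beta subunit Glrb, which anchors them to gephyrin. Within this family Gabra3 is a known editing substrate of ADAR enzymes, in which deamination recodes an isoleucine to a methionine in the third membrane-spanning segment. The array reads the level of a transcript and not its editing.

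Adarb1, examined as a check of the labels, had log2 signals of 10.50 and 10.45 on the wild-type arrays and of 9.16 and 8.96 on the Adar2-/- arrays. The difference was -1.415 (SE 0.118, limma unadjusted p = 2.57e-05, limma adjusted p = 0.409). That unadjusted p was the lowest of all 33793 clusters, so even the targeted gene did not pass an adjusted p of 0.05. Signals are given throughout as the deposited normalized log2 values, and a difference is the Adar2-/- mean minus the wild-type mean on that scale. All 6 neuronal markers and all 8 glial markers examined lay above the range of 3.49 to 4.40 covered by 4 Y-linked clusters, which female mice lack. Some arrays stood apart in markers of other tissue. Bpifa2, a salivary protein gene, had signals of 5.13 and 5.09 in wild type and of 12.61 and 5.28 in Adar2-/-, and the mean over 13 clusters of salivary markers was 6.368 on replicate 1 of the knockout and 4.885, 4.899 and 5.014 on wild-type replicates 1 and 2 and Adar2-/- replicate 2. That mean was raised by 4 of the 13 clusters, Bpifa2, Dcpp1 at 10.20, Smr3a at 8.47 and Amy1 at 7.70, and the other 9 lay between 3.36 and 6.68 on that array. The pituitary hormone gene Prl was at 6.55 and 4.99 in wild type and at 10.11 and 9.66 in Adar2-/-. All 9 clusters of pituitary markers had higher means in Adar2-/-, with a median difference of 0.18 and a range of 0.01 to 4.115. An unadjusted limma p below 0.05 was found in 3 of the 9, or 33.3%, where 5.95% of all clusters had one. All 6 olfactory bulb clusters had their lowest signal on Adar2-/- replicate 2, where 25.9% of all clusters had theirs. Of 12 clusters of hindbrain and spinal cord markers 10 had theirs on wild-type replicate 1, or 83.3%, where 26.4% of all clusters did. So did 3 of the 4 Y-linked clusters. The hindbrain list was dim, with means of 5.597 to 6.032 per array beside medians over all clusters of 6.03 to 6.09. All 12 of its clusters lay above the Y-linked range on every array. In whole-brain RNA, fewer cells of a type and less RNA per cell cannot be told apart.

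For most receptor transcripts the fit could not tell the difference between the genotypes from 0. Of the 26 genes, 11 were higher and 14 lower in Adar2-/-, and Gabbr2 had the same mean in both. The median difference was -0.025, beside 0.005 over all clusters. No receptor gene passed an adjusted p of 0.05 in limma, where 0% of all clusters passed, and the adjusted p of the receptors ran from 0.834 to 1. Adarb1 did not pass it either, so this threshold cannot tell changed receptors from unchanged ones. The unadjusted p of the same fit was below 0.05 for 2 receptor genes, Glra2 lower and Gabrr2 higher, which is 7.69% of 26 where 5.95% of all clusters passed (3.64% higher and 2.31% lower). Over all clusters that split depends on the scaling, with 1230 higher and 779 lower as deposited, 801 and 1229 after each array was centred on its median, 896 and 944 after quantile normalization and 924 and 915 after cyclic loess. Among the receptors the counts were 8 higher and 18 lower after median centring, 14 and 11 after quantile normalization and 17 and 9 after cyclic loess.

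**Figure D1:**
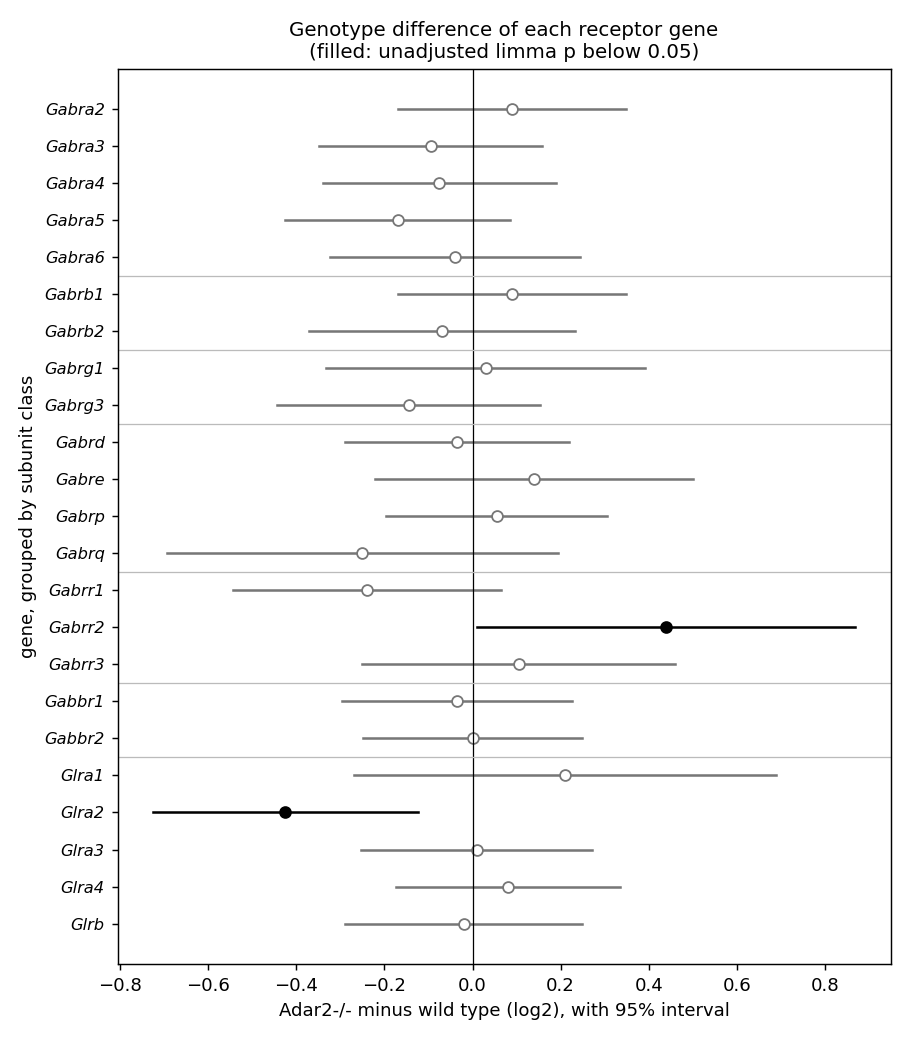
Difference between genotypes on the log2 scale (x axis) for each of 23 receptor genes (y axis, grouped by subunit class), with the 95% confidence interval of the limma fit on 4 arrays as a line. Filled points mark the 2 genes with an unadjusted p below 0.05 in limma, Glra2 at -0.425 and Gabrr2 at 0.44, and the intervals of the other 21 genes include 0.

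The arrays of the 2 genotypes did not overlap for 10 receptor genes, or 38.5%, where 34.1% of all clusters did not overlap. Of these, 5 were lower on both Adar2-/- arrays (16.5% of all clusters), among them Gabra3, Gabra5, Gabrr1 and Glra2, and 5 were higher on both (17.7% of all clusters), namely Gabra2, Gabrb1, Gabrp, Gabrr2 and Glra4. The split of higher against lower depended on the scaling, with 2 receptors higher and 10 lower after median centring (4333 and 8189 of all clusters), 3 and 5 after quantile normalization (5465 and 5820 of all clusters) and 5 and 3 after cyclic loess (5803 and 5782 of all clusters). The exact permutation test over arrays gives p = 0.333 for each of these, the smallest p that 2 against 2 arrays can give. In 9 genes, or 34.6%, the genotype difference was larger than both differences between replicate arrays, against 23.1% of all clusters. Of the 10 genes without overlap only Gabra2 was missing from these 9, since its difference of 0.09 equalled the gap between the wild-type arrays. Across the 26 genes the wild-type arrays differed from each other by a median of 0.09 and the Adar2-/- arrays by 0.11. The median size of the genotype difference, 0.085, lay below both, as it did over all clusters, at 0.1 beside 0.13 and 0.13. Means of 2 arrays vary less than single arrays, so this order does not tell whether the receptors changed.

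**Figure D2:**
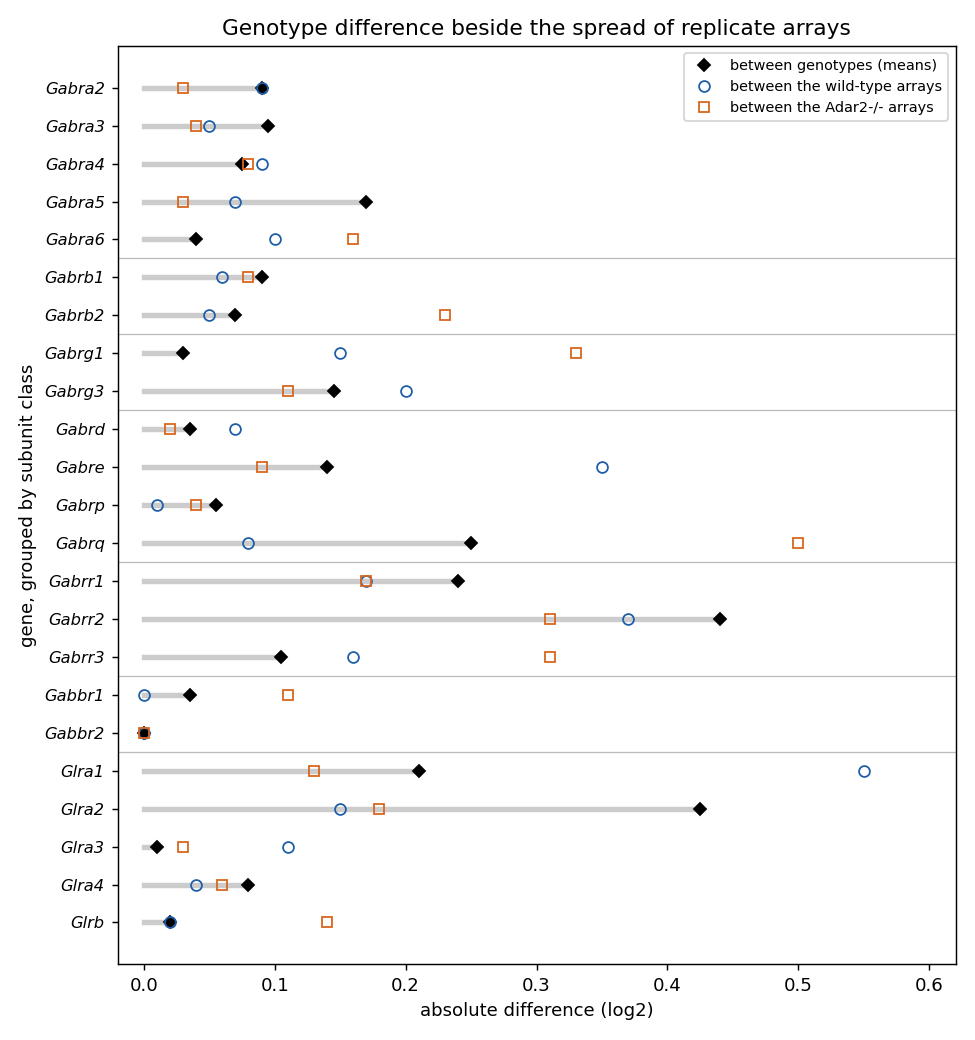
Absolute difference on the log2 scale (x axis) for each of 23 receptor genes (y axis), between the genotype means (black diamonds), between the 2 wild-type arrays (blue circles) and between the 2 Adar2-/- arrays (orange squares). The diamond lies beyond both open symbols in 8 of 23 genes, by most in Glra2, where the values are 0.425, 0.15 and 0.18.

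Adar2-/- replicate 1 had the lowest of the 4 signals in 12 of the 26 receptor genes, or 46.2%, and it had the lowest in 21.6% of all clusters. The alpha, beta and gamma subunits made up 9 of these 12. This is the array with the salivary transcripts, whose part in the low receptor signals was not tested. Without Adar2-/- replicate 1 the median receptor difference was 0.032, with 15 genes higher and 9 lower. Without Adar2-/- replicate 2 it was -0.062, with 8 higher and 17 lower.

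Gabra3, the edited subunit, showed no difference in transcript level that the fit could tell from 0. Its signals were 10.52 and 10.47 on the wild-type arrays and 10.38 and 10.42 on the Adar2-/- arrays (chromosome X, 72432676 to 72656848, minus strand). The genotypes did not overlap, and the lower wild-type array was 0.05 above the higher Adar2-/- array. The means were 10.495 ± 0.035 and 10.40 ± 0.028 (SD, n = 2 each), and the difference was -0.095 (SE 0.103, limma adjusted p = 0.919). The 95% interval ran from -0.348 to 0.158, that is from 0.786 to 1.12 times the wild-type level. Over the 13 other settings tried, the difference ranged from -0.135 to -0.045 and was below 0 in each.

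The other alpha subunits carry the benzodiazepine site together with gamma, except in receptors of Gabra4 and Gabra6, and they are used in different regions. Gabra4, found with delta outside the synapse in forebrain, had 10.64 and 10.55 in wild type and 10.48 and 10.56 in Adar2-/-, a difference of -0.075 (95% interval -0.339 to 0.189), and the genotypes overlapped. Gabra2 had 9.85 and 9.94 in wild type and 10 and 9.97 in Adar2-/-, a difference of 0.09 (95% interval -0.168 to 0.348). Gabra6, which marks cerebellar granule cells, had 9.68 and 9.78 in wild type and 9.61 and 9.77 in Adar2-/-. Its difference of -0.04 (95% interval -0.324 to 0.244) stood beside a median of -0.13 over 10 clusters of cerebellar markers, of which 8 were lower and 0 had an unadjusted p below 0.05. In 8 of these 10 clusters, or 80%, the groups did not overlap, with 7 lower and 1 higher, where 34.1% of all clusters did not, and their part in the value of Gabra6 was not tested. No alpha subunit passed an unadjusted p of 0.05.

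Gabra5 and Gabrg3 lie near each other on chromosome 7 (56716465 to 57510009), and both had lower means in Adar2-/-. Gabra5, the subunit of tonic inhibition in hippocampus, had 10.09 and 10.16 in wild type and 9.94 and 9.97 in Adar2-/-. Gabrg3, a gamma subunit, had 9.10 and 8.90 against 8.80 and 8.91. The genotypes did not overlap in Gabra5, and in Gabrg3 they overlapped. The differences were -0.17 for Gabra5 (SE 0.103, 95% interval -0.425 to 0.085, limma adjusted p = 0.856) and -0.145 for Gabrg3 (95% interval -0.444 to 0.154).

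Single arrays and the scaling moved both values without turning their sign. Without Adar2-/- replicate 1 the difference was -0.155 for Gabra5 and -0.09 for Gabrg3, and over the 4 arrays left out in turn that of Gabrg3 ran from -0.245 without wild-type replicate 2 to -0.045 without wild-type replicate 1. After median centring, quantile normalization and cyclic loess the difference of Gabra5 was -0.21, -0.132 and -0.121. Neither gene had an unadjusted p below 0.05 in any of these settings. The p of Gabra5 was below 0.05 in the pooled-variance test without shrinkage, which takes the spread from its own 4 values.

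Other receptor genes also lie in groups on the chromosomes. In the group on chromosome 5 (70751047 to 72138389) Gabra4 was lower, while Gabrg1, Gabra2 and Gabrb1 were higher, with a range of -0.075 to 0.09. On chromosome 11 (42306437 to 42632591) Gabra6 and Gabrb2 differed by -0.04 and -0.07. On chromosome X (72255999 to 72842602) Gabra3 and Gabrq were lower and Gabre was higher. On chromosome 4 (33062999 to 33163588) Gabrr1 and Gabrr2 went in opposite directions.

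**Figure D3:**
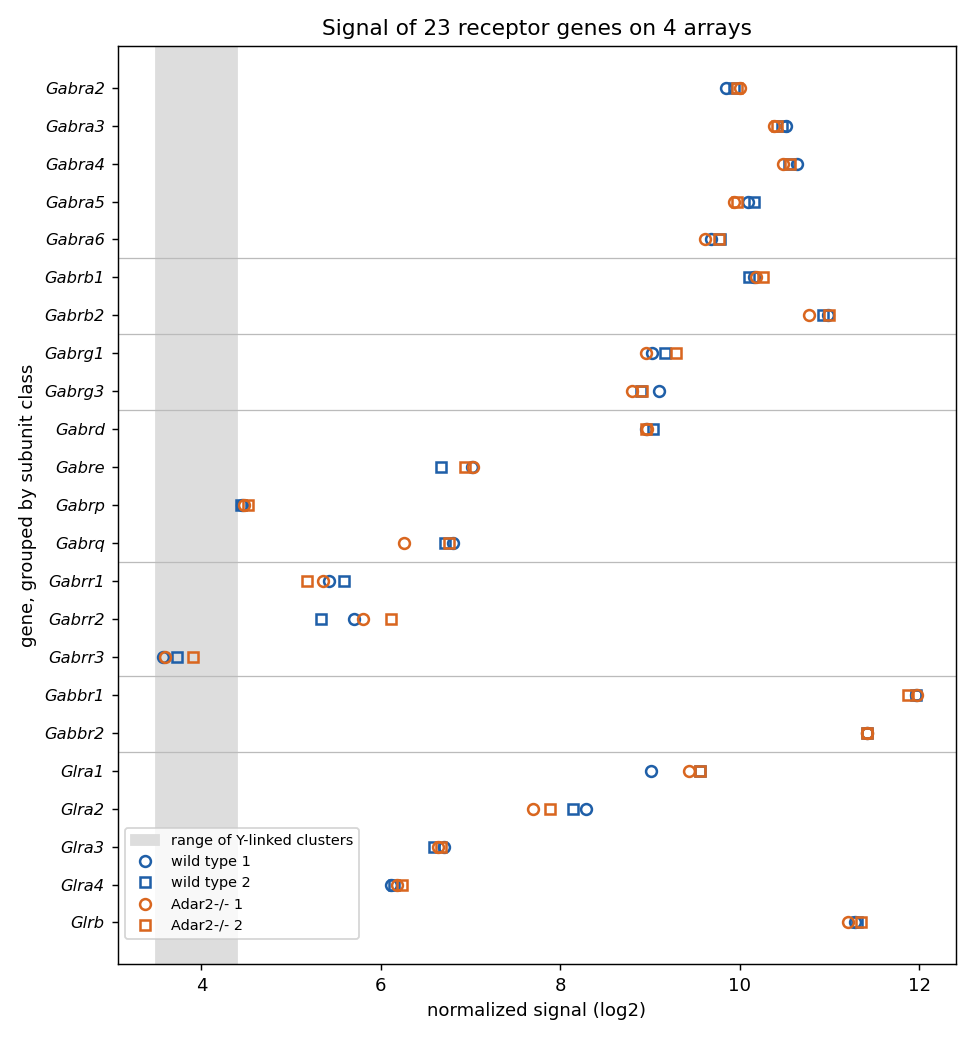
Normalized log2 signal (x axis) of 23 receptor genes (y axis, grouped by subunit class) on each of the 4 arrays, wild type in blue and Adar2-/- in orange, with circles for replicate 1 and squares for replicate 2. The grey band is the range of 4 Y-linked clusters, 3.49 to 4.40, which contains all 4 signals of Gabrr3. Signals of different genes depend on their probes and are not to be ranked against each other.

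Of the remaining beta and gamma subunits, which join alpha subunits in most synaptic GABA-A receptors, none passed an unadjusted p of 0.05. Gabrb1 had 10.16 and 10.10 in wild type and 10.18 and 10.26 in Adar2-/-, a difference of 0.09 (95% interval -0.169 to 0.349). Gabrb2 had 10.98 and 10.93 against 10.77 and 11, a difference of -0.07 (95% interval -0.372 to 0.232), so its Adar2-/- arrays lay on either side of the wild-type values. Gabrg1 differed by 0.03 (95% interval -0.332 to 0.392), with Adar2-/- arrays at 8.96 and 9.29 on either side of the wild-type values of 9.02 and 9.17.

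The delta, epsilon, pi and theta subunits join less common receptors. Gabrd, the delta subunit of receptors outside the synapse, had 8.96 and 9.03 in wild type and 8.97 and 8.95 in Adar2-/- (difference -0.035, 95% interval -0.289 to 0.219). Gabre, the epsilon subunit, had 7.02 and 6.67 against 7.03 and 6.94, a difference of 0.14 (95% interval -0.221 to 0.501). Gabrp, the pi subunit known from epithelia rather than neurons, had 4.45 and 4.44 against 4.48 and 4.52, just above the range of the Y-linked clusters, a difference of 0.055 (95% interval -0.196 to 0.306). Gabrq, the theta subunit of hypothalamus and brainstem, had 6.80 and 6.72 in wild type and 6.26 and 6.76 in Adar2-/-, a difference of -0.25 (95% interval -0.694 to 0.194). Only replicate 1 of the knockout stood apart. Without Adar2-/- replicate 2 the Gabrq difference was -0.50, with an unadjusted p below 0.05, and without Adar2-/- replicate 1 it was 0.

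The rho subunits form GABA-gated channels best known from the retina. Gabrr2 had 5.70 and 5.33 in wild type and 5.80 and 6.11 in Adar2-/-. The genotypes did not overlap, but wild-type replicate 1 and Adar2-/- replicate 1 were 0.10 apart, and the replicates within a genotype differed by 0.37 and 0.31. The difference was 0.44 (SE 0.174, 1.36-fold, 95% interval 0.011 to 0.869, limma adjusted p = 0.834). After median centring it was 0.40, after quantile normalization 0.391 and after cyclic loess 0.398, with an unadjusted p above 0.05 each time. Leaving out any array also took the unadjusted p above 0.05, with a difference of 0.255 without wild-type replicate 2, 0.285 without Adar2-/- replicate 2, 0.595 without Adar2-/- replicate 1 and 0.625 without wild-type replicate 1. The median difference of 5 retinal marker clusters was 0.115, with 4 of 5 higher and 0 with an unadjusted p below 0.05. Gabrr1, its neighbour, had 5.42 and 5.59 against 5.35 and 5.18 (difference -0.24, 95% interval -0.544 to 0.064). All 4 signals of Gabrr3, from 3.57 to 3.91, lay within the range of the Y-linked clusters, so its difference of 0.105 (95% interval -0.250 to 0.460) says nothing of a level above background.

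The GABA-B receptor genes showed no difference that the fit could tell from 0. Gabbr1, which binds GABA, had 11.96 on both wild-type arrays and 11.98 and 11.87 on the Adar2-/- arrays (difference -0.035, 95% interval -0.296 to 0.226). Gabbr2, which couples the receptor to G proteins, was listed at 11.42 on all 4 arrays, at the 2 decimals of the file. The 95% interval of its difference ran from -0.249 to 0.249, or 0.842 to 1.19 times the wild-type level, which rests on the spread borrowed from other clusters.

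Among the glycine receptor genes Glra2, the alpha subunit that prevails before birth and persists in parts of the adult forebrain and retina, had the lowest p of the 26 receptors. Its signals were 8.29 and 8.14 on the wild-type arrays and 7.70 and 7.88 on the Adar2-/- arrays (chromosome X, 165129017 to 165327393, minus strand). Both Adar2-/- arrays were lower than both wild-type arrays, by at least 0.26, and the gap exceeded the spread within either genotype. The means were 8.215 ± 0.106 and 7.79 ± 0.127 (SD, n = 2 each). The difference was -0.425 (SE 0.122, 1.34-fold lower, 95% interval -0.726 to -0.124), but the limma adjusted p over all 33793 clusters was 0.834.

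The direction of Glra2 was the same in all 13 alternatives, from -0.515 to -0.335. Without Adar2-/- replicate 1, the array with the salivary transcripts, the difference was -0.335, and without wild-type replicate 1 it was -0.35, both with an unadjusted p above 0.05. Without wild-type replicate 2 it was -0.50 and without Adar2-/- replicate 2 it was -0.515, both with an unadjusted p below 0.05. The pooled-variance test without shrinkage also put the p above 0.05.

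The promoters of Glra2 and Gabrr2, the only genes with an unadjusted p below 0.05, and that of the edited Gabra3 are shown so that their sequences can be set beside these values. Each runs from 250 bases before to 50 after a transcription start and comes from the RefSeq tables of build GRCm38.p6, on the minus strand for Glra2 and Gabra3 and on the plus strand for Gabrr2. Of the 26 receptor genes 21 had such a window. Capitals mark matches on either strand to the GC box (GGGCGG or CCGCCC), the cyclic AMP response element (TGACGTCA) or the TATA box (TATAAA or TTTATA), and no match overlaps another.
Glra2, chrX:165327344-165327643: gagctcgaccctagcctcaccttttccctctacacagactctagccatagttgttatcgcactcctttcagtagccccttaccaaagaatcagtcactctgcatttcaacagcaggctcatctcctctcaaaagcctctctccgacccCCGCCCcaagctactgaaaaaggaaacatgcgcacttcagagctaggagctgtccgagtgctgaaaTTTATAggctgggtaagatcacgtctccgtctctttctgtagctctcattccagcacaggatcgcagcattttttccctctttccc
Gabrr2, chr4:33062862-33063161: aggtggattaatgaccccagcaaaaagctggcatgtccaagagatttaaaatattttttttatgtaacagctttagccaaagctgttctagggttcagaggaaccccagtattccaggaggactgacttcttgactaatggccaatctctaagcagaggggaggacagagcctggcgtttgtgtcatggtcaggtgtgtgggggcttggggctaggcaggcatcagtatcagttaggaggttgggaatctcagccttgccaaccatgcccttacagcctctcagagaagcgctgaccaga
Gabra3, chrX:72656870-72657169: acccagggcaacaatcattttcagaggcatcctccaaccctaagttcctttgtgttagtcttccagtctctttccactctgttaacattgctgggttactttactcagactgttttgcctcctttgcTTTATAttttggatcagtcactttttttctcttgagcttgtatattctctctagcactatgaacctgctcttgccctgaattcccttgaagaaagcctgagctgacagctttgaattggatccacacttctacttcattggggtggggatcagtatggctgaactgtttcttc

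The Glra2 window held 1 match to the GC box and 1 to the TATA box. The Gabra3 window held 1 match to the TATA box, and the Gabrr2 window held no match. Both TATA box matches read TTTATA, the reverse complement of TATAAA, and their distance from the start was not weighed. A GC box was found in 12 of 25 receptor windows (48%) and in 35.7% of all 32851 windows of that length. A TATA box was found in 4 of 25 (16%) and in 13.6% of all windows, the 4 windows belonging to 3 genes because a pair of overlapping Gabra3 windows holds the same box. The cyclic AMP response element was found in 0 of 25 and in 1.79%. A match describes letters in the window and is not a measured binding site.

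Glra1, the adult alpha subunit of brainstem and spinal cord, differed more between the wild-type arrays than between the genotypes. It had 9.01 and 9.56 in wild type and 9.43 and 9.56 in Adar2-/-. Only wild-type replicate 1 was low, and the genotypes overlapped. The difference was 0.21 (95% interval -0.269 to 0.689). It was -0.065 without wild-type replicate 1 and 0.485, with an unadjusted p below 0.05, without wild-type replicate 2.

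Slc6a5, the glycine transporter of glycinergic nerve endings, followed the same arrays as Glra1, with 9.17 and 9.80 in wild type and 9.86 and 9.77 in Adar2-/-. Its difference of 0.33 (95% interval -0.194 to 0.854) became 0.015 without wild-type replicate 1 and 0.645, with an unadjusted p below 0.05, without wild-type replicate 2. Markers of hindbrain and spinal cord also stood lower on that array, with a mean over 12 clusters of 5.597 there and of 5.962, 6.032 and 5.882 on wild-type replicate 2 and Adar2-/- replicates 1 and 2. Other markers were low there too, with 4 of 5 choroid plexus clusters and 4 of 7 hypothalamic clusters lowest on that array, where 26.4% of all clusters were. Their part in the Glra1 and Slc6a5 values was not tested. Glrb, the beta subunit that brainstem shares with the rest of the brain, was not low on that array, at 11.29 and 11.31 in wild type and 11.21 and 11.35 in Adar2-/- (difference -0.02, 95% interval -0.289 to 0.249). Glra3, the alpha subunit of spinal pain circuits, had 6.70 and 6.59 against 6.64 and 6.67, a difference of 0.01 (95% interval -0.252 to 0.272). Glra4 had 6.11 and 6.15 against 6.18 and 6.24, a difference of 0.08 (95% interval -0.174 to 0.334).

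**Figure D4:**
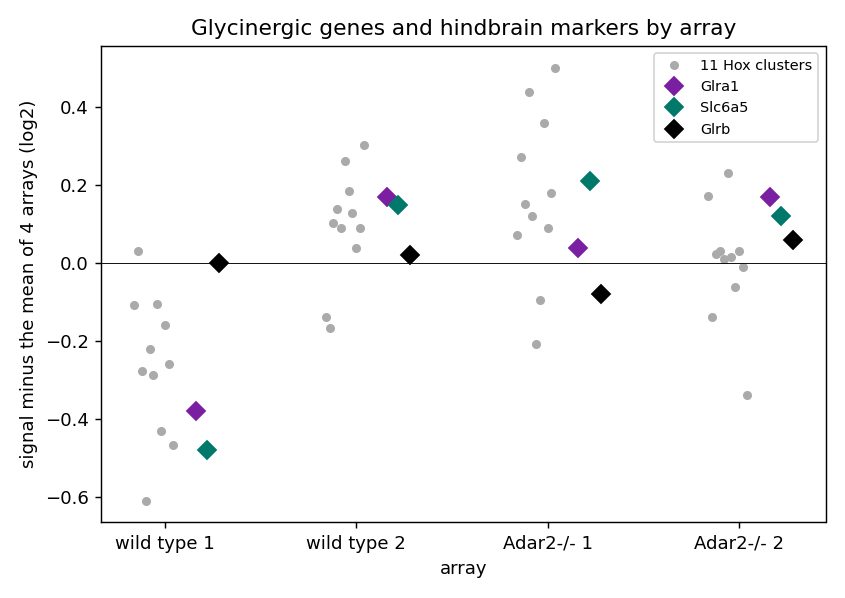
Signal of each gene minus its mean over the 4 arrays (y axis, log2) on each array (x axis), for Glra1, Slc6a5 and Glrb (diamonds) and for 11 clusters of Hox genes (grey points), which mark hindbrain and spinal cord. On wild-type replicate 1 Glra1 and Slc6a5 and 10 of the 11 grey points lie below 0, while Glrb lies at 0.

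Genes that make, move, anchor and answer to GABA and glycine were examined beside the receptors. Lists of 50 such genes were matched to 56 clusters, of which 27 were higher and 28 lower in Adar2-/-, with a median difference of -0.005 and a range of -0.30 to 0.33. In limma 0 of the 56 had an adjusted p below 0.05, and 0 an unadjusted p below 0.05, where 5.95% of all clusters did. The groups did not overlap in 8, or 14.3%, where 34.1% of all clusters did not, and 25 of the 56 clusters had their lowest signal on wild-type replicate 1, or 44.6%, where 26.4% of all clusters did.

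The genes named from these lists were picked after their values were seen, for their place in the pathway. Among 21 clusters of the postsynaptic scaffold and of receptor trafficking 9 were higher and 12 lower, with a median of -0.045, and Gphn, which encodes gephyrin, differed by 0.035 (95% interval -0.224 to 0.294). Of 17 clusters for synthesis, transport and breakdown 9 were higher and 8 lower. Gad1 and Gad2, the enzymes that make GABA, differed by -0.01 (95% interval -0.264 to 0.244) and -0.06 (95% interval -0.343 to 0.223). Of the 4 genes of the glycine cleavage system, Gldc and Amt were lower on both Adar2-/- arrays, at -0.30 (95% interval -0.650 to 0.050) and -0.21 (95% interval -0.480 to 0.060), while Gcsh at -0.06 and Dld at 0.08 overlapped between the genotypes. The groups did not overlap in 2 of these 17 clusters, or 11.8%, where 34.1% of all clusters did not. Of 10 clusters for GABA-B auxiliary subunits and the potassium channels it opens 4 were higher and 5 lower. Of 8 chloride transport clusters 5 were higher and 3 lower, and Slc12a5, the exporter that sets the direction of GABA currents, differed by 0.025 (95% interval -0.250 to 0.300). Of 7 clusters of GABAergic neuron markers 5 were lower and 2 higher, with a median of -0.075 and a range of -0.45 to 0.28. The groups did not overlap in 5 of them, 4 lower and 1 higher, or 71.4%, where 34.1% of all clusters did not. An unadjusted p below 0.05 was found in 1 of the 7, or 14.3%, where 5.95% of all clusters had one. This was Dlx5, at 8.43 and 8.37 in wild type and 8.17 and 7.73 in Adar2-/-, with its lowest signal on the array that was low in olfactory bulb markers, whose part in it was not tested. Pvalb, of the same list, was higher on both Adar2-/- arrays, with a difference of 0.28 (95% interval -0.039 to 0.599).

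**Figure D5:**
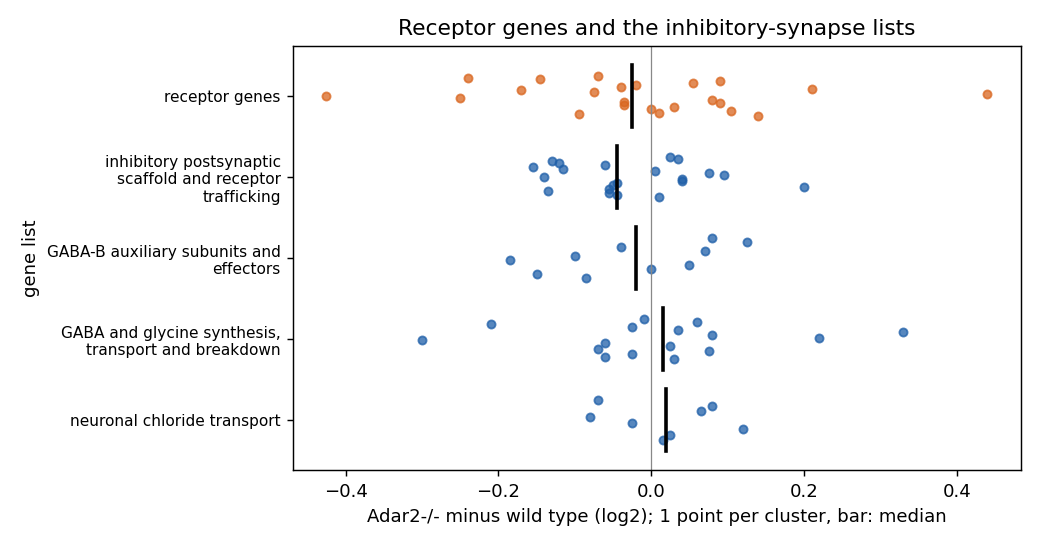
Difference between genotypes on the log2 scale (x axis) for 23 receptor genes (orange) and for 55 clusters of 4 lists of inhibitory-synapse genes (blue), with 1 point per cluster and a black bar at the median over all members of each list, also those not drawn. The medians lie between -0.045 and 0.02, and the receptor genes drawn span -0.425 to 0.44.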

How the data were processed

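Total RNA of whole brain was processed for Affymetrix whole-transcript mouse arrays at a core facility. The authors deposited 1 table with a normalized log2 signal per transcript cluster and array, given to 2 decimals. The labels' processing notes name Affymetrix Expression Console and RMA, and the genome build is not given in the sources used here. The coordinates of all 26 receptor clusters overlap the RefSeq gene of the same symbol in GRCm38.p6. The table's averages, log ratios, fold changes and p-values, per genotype and per replicate number, are the authors' own comparisons and were not used. Arrays were grouped by the genotype in their titles.

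Differences were tested on the deposited log2 values of all 33793 clusters by the moderated test of limma 3.58.1, run in R 4.3.3 and two-sided, with no term beside genotype (prior SD 0.125 with 3.79 degrees of freedom), with Benjamini-Hochberg adjustment over all clusters and no filter. The number of arrays limits the precision. The fit was also run on simulated data with independent values and spreads drawn from its own prior. That does not test it on array-wide differences such as those seen here. The rule names every receptor gene, but values of some receptor and list genes are not reported here. Genes of the 4 lists of synapse, synthesis and transport genes were to be named for an unadjusted p below 0.05 without overlap, which none of these met, and those named, with Dlx5, Pvalb and the salivary genes, were chosen after their values were seen. Some list symbols were matched through RefSeq synonyms. Members and lists were chosen with earlier results of these data known. The 13 alternatives were 3 further normalizations, clusters above the median signal alone, a block for the replicate number, 3 other variance estimates, leaving out clusters that can cross-hybridize, and leaving out each array. Summaries used Python 3.11.15 and pandas 2.3.3.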

Additional observations from a re-analysis of the deposited data

How the results depend on the processing

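With 2 arrays a genotype, single arrays decide many of the values, and the cause of the changes below was not tested. The 0 clusters past an adjusted p numbered 15 once the variance was pooled per cluster with no shrinkage, and 0 elsewhere. The 2009 clusters past an unadjusted p became 989 above the median signal, where fewer clusters are tested, and 1221 to 1801 with single arrays left out, the lowest without wild-type replicate 1. The 2 receptors at an unadjusted p became 1, Glra2, with median centring, cyclic loess, the filter on dim clusters (which leaves out Gabrr2) and the replicate block, and 1, Gabra5, in the pooled-variance test. With arrays left out they numbered 0 to 2, with 0 without wild-type replicate 1 and without Adar2-/- replicate 1, Glra2 and Glra1 without wild-type replicate 2, and Glra2 and Gabrq without Adar2-/- replicate 2. The median receptor difference ranged from -0.062 to 0.032 with arrays left out. It was -0.065 after median centring, 0.007 after quantile normalization and 0.012 after cyclic loess. The medians over all clusters were then -0.035, -0.003 and 0.001. Gabra3 and Adarb1 kept their direction, Gabra3 from -0.12 to -0.07 and Adarb1 from -1.515 to -1.315 with arrays left out.

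Same-numbered arrays were not paired by their values, with Pearson's r of 0.0516 between same-numbered deviations across clusters. The replicate block left 0 clusters past an adjusted p, 1693 past an unadjusted p, and 1 receptor, Glra2.

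Gabrr1 took the place of Gabrr2 at an unadjusted p below 0.05 after quantile normalization, at -0.294. Signs turned only in genes that had no unadjusted p below 0.05 in the fit on all 4 arrays as deposited. Median centring gave -0.01 for Gabrg1 and -0.03 for Glra3. Quantile normalization gave 0.005 for Gabbr1 and 0.025 for Glrb, and cyclic loess 0.015 and 0.03, with 0.009 for Gabra6 and 0.01 for Gabrd. With arrays left out the ranges were -0.065 to 0.485 for Glra1, -0.135 to 0.195 for Gabrg1, -0.12 to 0.04 for Gabra6, -0.035 to 0.315 for Gabre, -0.045 to 0.065 for Glra3, -0.185 to 0.045 for Gabrb2, -0.09 to 0.05 for Glrb, -0.05 to 0.26 for Gabrr3 and -0.09 to 0.02 for Gabbr1. Of 295 values of single receptors under an alternative, 259 neither turned sign nor crossed the threshold, 20 turned sign, 12 lost and 4 gained an unadjusted p below 0.05. The 259 include values of 0, and those of Gabbr2, which had no direction as deposited and was at -0.04 after median centring, 0.032 after quantile normalization and 0.05 after cyclic loess. In the 4 lists the count past an unadjusted p was 0 to 2 in any alternative.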
